A study of Mus musculus with 32 samples.

Results

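Mrc1, Cd163, Lyve1, Pf4, F13a1, Cbr2, Folr2, Timd4, Stab1 and Ms4a7, used as identity genes of macrophages at the borders of the mouse brain, were followed in sorted cells and in whole tissue after stroke. The 10 genes were taken by name from count tables that hold 33280 genes, and all 10 were found in both tables. Bulk RNA-seq was performed on 32 libraries from 8 wild-type mice, which the study's methods give as C57BL/6JCrl animals of both sexes and for which the sample labels give no age. CTL mice (A2, A3, A4 and B1) received vehicle and BLZ945 mice (C2, C3, C4 and D1) received BLZ945, an inhibitor of the CSF1 receptor on which brain macrophages depend, given for 7 days at a dose of 200 mg per kg. All 8 mice then underwent a thromboembolic occlusion of the middle cerebral artery 8 weeks after the treatment, and material was taken 1 day later, so no group without stroke was part of these comparisons. Each mouse gave 4 libraries, 1 of whole tissue and 1 of sorted sdCAMs from the ipsilateral (lesioned) and from the contralateral hemisphere. The sdCAMs, the subdural CNS-associated macrophages of the leptomeninges and perivascular spaces, were sorted from brain without choroid plexus as CD45+CD11b+CD206+ cells that lacked Ly6C, Ly6G and CD11c. CD206 is the product of Mrc1, so that the presence of Mrc1 in the sorted cells is a consequence of the gate and no finding.

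Border macrophages lie along vessels and in the meninges, take up macromolecules and debris from cerebrospinal fluid, and differ from microglia by scavenger receptors that microglia express weakly or not at all. Many arise from embryonic precursors, while after depletion with a CSF1 receptor inhibitor part of the niche can be refilled by cells from the bone marrow. Cd163, Lyve1 and Timd4 are commonly used as marks of long-lived resident tissue macrophages, and Ms4a7 has been linked to macrophages of bone marrow origin in the brain. The study itself counts Ms4a7 among genes common to sdCAMs of either origin. It counts Folr2, with Lyve1 and Cd163, among genes of embryo-derived sdCAMs. In bulk samples, fewer cells of a type and less RNA per cell cannot be told apart.

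Promoters are shown for Mrc1, which encodes the sort marker, for F13a1, the member with the most reads in the sorted cells (not scaled for length), and for Cd163 and Timd4, the pair with the largest differences between treatments. RefSeq on GRCm38.p6 gave 12 start sites for 9 of the 10 genes, and Lyve1 had no entry. Each window holds 250 bases before the start and 50 after it, written 5′ to 3′ on the strand of the gene. Capitals mark the letters GAGGAA, the core of PU.1 motifs, or TGCTGA, the core of MAF motifs, on either strand (TTCCTC and TCAGCA on the opposite strand); PU.1 and MAF factors specify macrophages.
Mrc1, chr2:14229164-14229463, plus strand: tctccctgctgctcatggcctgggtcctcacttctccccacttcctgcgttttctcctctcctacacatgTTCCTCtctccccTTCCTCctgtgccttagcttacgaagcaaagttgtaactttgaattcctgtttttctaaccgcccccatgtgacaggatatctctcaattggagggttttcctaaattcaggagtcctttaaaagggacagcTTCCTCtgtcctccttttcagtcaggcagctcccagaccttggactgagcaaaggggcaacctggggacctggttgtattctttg
F13a1, chr13:37050195-37050494, minus strand: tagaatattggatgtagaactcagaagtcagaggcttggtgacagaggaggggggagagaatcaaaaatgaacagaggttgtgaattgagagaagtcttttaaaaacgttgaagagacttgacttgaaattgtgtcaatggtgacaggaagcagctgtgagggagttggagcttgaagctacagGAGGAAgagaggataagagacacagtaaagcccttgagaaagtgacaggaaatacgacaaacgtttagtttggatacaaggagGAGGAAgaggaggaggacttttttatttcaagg
Cd163, chr6:124304401-124304700, plus strand: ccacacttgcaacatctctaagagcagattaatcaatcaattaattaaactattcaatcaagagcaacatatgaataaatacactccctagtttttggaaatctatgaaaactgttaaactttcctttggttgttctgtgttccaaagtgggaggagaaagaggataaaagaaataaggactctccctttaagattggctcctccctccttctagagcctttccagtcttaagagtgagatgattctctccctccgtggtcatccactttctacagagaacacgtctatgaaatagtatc
Timd4, chr11:46810549-46810848, plus strand: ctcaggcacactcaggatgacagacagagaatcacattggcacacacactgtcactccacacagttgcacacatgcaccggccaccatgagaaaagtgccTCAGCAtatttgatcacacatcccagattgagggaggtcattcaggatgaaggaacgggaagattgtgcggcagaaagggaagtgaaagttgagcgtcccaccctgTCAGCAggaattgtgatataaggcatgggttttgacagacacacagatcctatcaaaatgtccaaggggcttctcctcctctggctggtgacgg
GAGGAA was found in 7 of the 12 windows (58.3%) and TGCTGA in 5 (41.7%), against 28.3% and 19.5% of all 32851 windows of this length. The Mrc1 window held GAGGAA 3 times, at positions -180, -167 and -35 relative to the start, and this F13a1 window held it 2 times. The Timd4 window held TGCTGA 2 times, and the Cd163 window held neither. These are matches of letters in the reference sequence, and no binding was measured here.

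Total counts on genes were between 7397393 and 11081409 in 14 sdCAM libraries and between 9288717 and 12781505 in the 16 tissue libraries, where 3 counts correspond to 0.253 to 0.389 and 0.234 to 0.321 CPM (counts scaled by the TMM-normalised size of each library). The ipsilateral sdCAM libraries of A3 and C2, labelled as degraded, held between 0 and 31 counts of each member and were left out, which left 3 ipsilateral and 4 contralateral sdCAM libraries in each treatment. For the tissue of A3, the table and the sample labels disagree on the hemisphere, and library 19 was taken as ipsilateral as in the labels. Microglia markers were abundant in every sdCAM library, with a summed level of 7863 to 30438 CPM for 9 genes, above the 1620 to 10353 CPM of the 10 members. Tmem119, a defining microglia gene, was at 2282 ± 254 CPM (SD, n = 4) in CTL contralateral sdCAMs. Choroid plexus markers summed to 37595 CPM in the contralateral sdCAM library of C4, 20264 in that of C3 and 9048 in that of A4, against 0.502 to 5404 CPM in the other 11.

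All 10 members were detected in each of the 14 sdCAM libraries, where they took between 0.170% and 0.975% of the counts. Levels between genes were compared per kilobase of annotated exons. In CTL contralateral sdCAMs, Pf4, a small chemokine of platelets and macrophages, was the highest at 645 ± 322 CPM per kb (SD, n = 4), followed by Cbr2, a carbonyl reductase, at 205 ± 89.8. F13a1, the A subunit of coagulation factor XIII, had 156 ± 81.1 CPM per kb, Mrc1 149 ± 84.7 and Lyve1 148 ± 61.7. These neighbours lay within the spread between mice. Cd163 followed at 85.0 ± 45.2 CPM per kb, Ms4a7 at 69.9 ± 30.1 and Stab1 at 46.1 ± 24.7, again within the spread. Timd4 at 24.6 ± 15.1 and Folr2 at 11.03 ± 4.63 CPM per kb were the lowest. In BLZ945 contralateral sdCAMs the order differed at the lower end, where Cd163 had 24.8 ± 12.5 CPM per kb, Folr2 11.2 ± 6.29 and Timd4 5.33 ± 3.02.

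**Figure D1:**
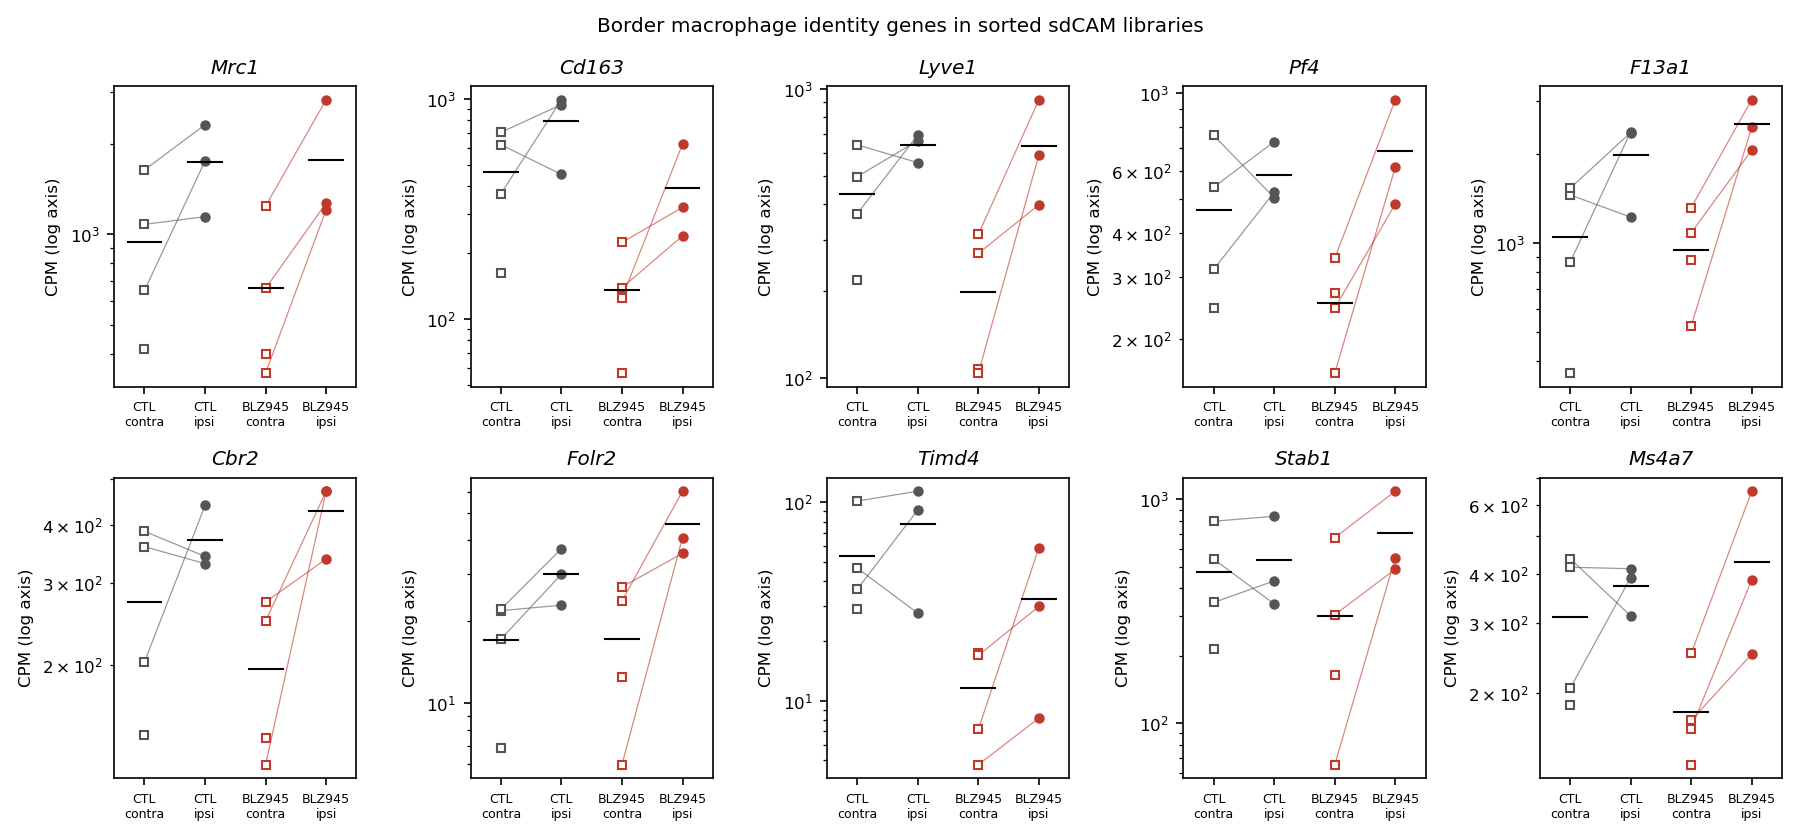
CPM of each gene (log axis) in sdCAM libraries by treatment and hemisphere, with open squares for contralateral and filled circles for ipsilateral libraries, a bar for the group mean and a line joining the hemispheres of 1 mouse. In BLZ945 mice every line goes up, whereas in CTL mice 8 of the 10 genes have their lower value on the ipsilateral side of A2.

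The first comparison asked how these genes differed between the lesioned and the contralateral side. In CTL sdCAMs, edgeR called no member, a call needing both an adjusted p of less than 0.05 and a log2 change larger than 0.59 in size, where 0.426% of 18297 genes were called higher. All 10 had a positive log2 fold change, from 0.18 for Stab1 to 0.91 for F13a1, with a median of 0.55 against -0.11 over all genes, and F13a1 alone had an unadjusted p-value under 0.05. With the mouse as a block Stab1 had a log2 fold change of -0.09. In BLZ945 sdCAMs the log2 fold changes ran from 1.12 for Cbr2 to 1.68 for Lyve1, with a median of 1.41 against -0.15 over all genes. Of the 10 members, 3 were upregulated, namely Lyve1, Pf4 and Ms4a7, where 1.2% of genes were called higher. With the average of both treatments, 8 of 10 were upregulated and 3.91% of genes were called higher, while Timd4 (adjusted p = 0.14) and Stab1 (adjusted p = 0.283) were not called. DESeq2, run as an alternative, called 0 members in CTL, 8 in BLZ945 and 8 in the average, and over all genes it called 277, 467 and 680 higher.

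Among the receptors, Lyve1 binds hyaluronan and marks perivascular and leptomeningeal macrophages. In BLZ945 mice its contralateral levels were 108, 270, 104 and 314 CPM in C2, C3, C4 and D1, and its ipsilateral levels were 398, 592 and 917 CPM in C3, C4 and D1. Every ipsilateral library exceeded every contralateral library (log2 fold change 1.68 ± 0.42 SE, edgeR adjusted p = 0.0296). In CTL mice the contralateral levels were 640, 218, 370 and 497 CPM in A2, A3, A4 and B1 against 555, 694 and 663 CPM ipsilaterally in A2, A4 and B1, and these groups overlapped (0.56 ± 0.41 SE, adjusted p = 0.48).

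Mrc1, the mannose receptor, had 1081, 415, 650 and 1643 CPM contralaterally in A2, A3, A4 and B1, and 1146, 1759 and 2325 CPM ipsilaterally in A2, A4 and B1. In BLZ945 mice it had 400.0, 661, 344 and 1243 CPM in C2, C3, C4 and D1 contralaterally, and 1273, 1210 and 2819 CPM ipsilaterally in C3, C4 and D1. The ipsilateral library of C4 was just under the contralateral library of D1, so the groups overlapped, and Mrc1 was called in the average of both treatments (log2 fold change 1.15 ± 0.35 SE, edgeR adjusted p = 0.0351) and in neither treatment alone.

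Cd163, the receptor for haemoglobin bound to haptoglobin, had a log2 fold change of 1.54 ± 0.50 SE in BLZ945 and of 0.78 ± 0.49 SE in CTL mice (edgeR adjusted p = 0.0822 and 0.402). Stab1, a scavenger receptor that takes up modified proteins, had 1.23 ± 0.61 SE and 0.18 ± 0.61 SE (adjusted p = 0.244 and 0.929). Folr2, which binds folate, was the 1 member with all 3 CTL ipsilateral libraries (22.95, 29.8 and 37.0 CPM) above all 4 contralateral ones (21.9, 6.87, 17.2 and 22.2 CPM), a separation seen in that direction for 5.7% of genes. In BLZ945 mice 6 of 10 members, Cd163, Lyve1, Pf4, F13a1, Cbr2 and Folr2, were separated this way, as were 7.44% of genes. Timd4, which binds phosphatidylserine on dying cells, ranged from 8.17 to 59.1 CPM ipsilaterally in BLZ945 mice and from 4.75 to 17.5 contralaterally, and the groups overlapped.

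Of the secreted and enzymatic products, Pf4 in BLZ945 mice had 271, 245, 160.0 and 340 CPM contralaterally in C2, C3, C4 and D1 and 485, 617 and 958 CPM ipsilaterally in C3, C4 and D1. The groups did not overlap (log2 fold change 1.44 ± 0.36 SE, edgeR adjusted p = 0.0293). In CTL mice the difference was 0.33 ± 0.36 SE (adjusted p = 0.666). Pf4 is also a platelet gene. Of a list of 9 other platelet markers, 7 were tested. The summed level of the list was 15.3 CPM contralaterally and 18.8 ipsilaterally in C3, 17.3 and 113 in C4, and 9.34 and 58.6 in D1. The median log2 fold change of the 7 tested was -1.84 in BLZ945 mice, opposite in direction to the sums. Itga2b, which encodes an integrin subunit of platelets, had 1.82 to 4.65 CPM in the 4 BLZ945 contralateral libraries and was at 0 in the 3 ipsilateral ones. The part of platelet RNA in the Pf4 difference was not tested.

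F13a1 had 878, 1082, 525 and 1315 CPM contralaterally and 2055, 2457 and 3039 CPM ipsilaterally in BLZ945 mice, without overlap (log2 fold change 1.41 ± 0.41 SE, edgeR adjusted p = 0.0584, not called). In CTL mice it had 1452, 364, 860 and 1528 CPM contralaterally and 1222, 2368 and 2354 CPM ipsilaterally (0.91 ± 0.41 SE, adjusted p = 0.25). It was called in the average of both treatments, with the lowest adjusted p-value of the members (1.16 ± 0.29 SE, edgeR adjusted p = 0.014). Ms4a7, a membrane protein of the MS4A family, was upregulated in BLZ945 sdCAMs, although its groups just overlapped, at 132 to 252 CPM contralaterally and 250.7 to 649 CPM ipsilaterally (1.26 ± 0.35 SE, edgeR adjusted p = 0.0466).

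The difference between the hemispheres was carried by some mice more than others. All 10 members were higher ipsilaterally in C3, C4, D1 and A4, 8 in B1 and 2 in A2. The median log2 ratio of the 10 members was 2.28 in C4, 1.19 in D1, 0.72 in C3, 1.02 in A4, 0.42 in B1 and -0.35 in A2. The contralateral libraries of A3 and C2, whose ipsilateral partners were left out, were among the lowest, with a summed member level of 1981 and 2178 CPM, and the lowest was that of C4 with 1620 CPM. With the mouse as a block, which in effect compares the 6 complete pairs, 4 of 10 members were called in the average (Mrc1, Lyve1, Pf4 and F13a1), and 4 in BLZ945 mice, where Mrc1 (1.31 ± 0.28 SE, edgeR adjusted p = 0.0247) and F13a1 (adjusted p = 0.0354) were gained and Ms4a7 (adjusted p = 0.0529) was lost. Over all genes this fit called 563 higher in the average and 267 in BLZ945 mice.

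The choroid-rich contralateral libraries of A4, C3 and C4 also bear on this comparison. Without these 3 libraries, an alternative chosen after the data had been seen, 0 members were called in any of these comparisons by edgeR. This left C2 and D1 as the BLZ945 contralateral libraries. Over all genes, those called higher went from 220 to 1 in BLZ945 and from 78 to 9 in CTL mice. In the average they went from 715 to 247. All 10 log2 fold changes of the members remained positive, and 8 had an unadjusted p-value under 0.05 in the average (median 0.84, edgeR adjusted p from 0.0762 to 0.631). For Lyve1 the value in BLZ945 mice moved from 1.68 to 1.61 and for Timd4 from 1.48 to 0.92. In BLZ945 mice, where 3 members were called, leaving out 1 mouse at a time gave between 0 and 6. Without C2, C4 or D1 no member was called, 1 without C3, 2 without A4 or B1, and 6 without A3. Over all genes, 86 were called higher without C2, 8 without C4, 124 without D1 and 14 without C3. The count was 165 without A4, 187 without B1 and 241 without A3. In the average, the number of members was 0 without A4, 2 without C4, 3 without C2 and 4 without A3, B1 or D1. The genes called higher there were 431 without A4, 414 without C4 and 594 without C2. Without A3, B1 and D1 they were 502, 551 and 690.

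Whether the response to stroke differed between treatments was tested as an interaction. All 10 members had a larger log2 fold change in BLZ945 than in CTL mice, by 0.49 for F13a1 up to 1.11 for Lyve1, with a median of 0.85. None was called by edgeR (adjusted p from 0.992 to 1.00), and 0% of genes were. Pf4 alone had an unadjusted p-value under 0.05 (1.10 ± 0.51 SE, edgeR adjusted p = 0.992), and DESeq2 called 0 members.

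**Figure D2:**
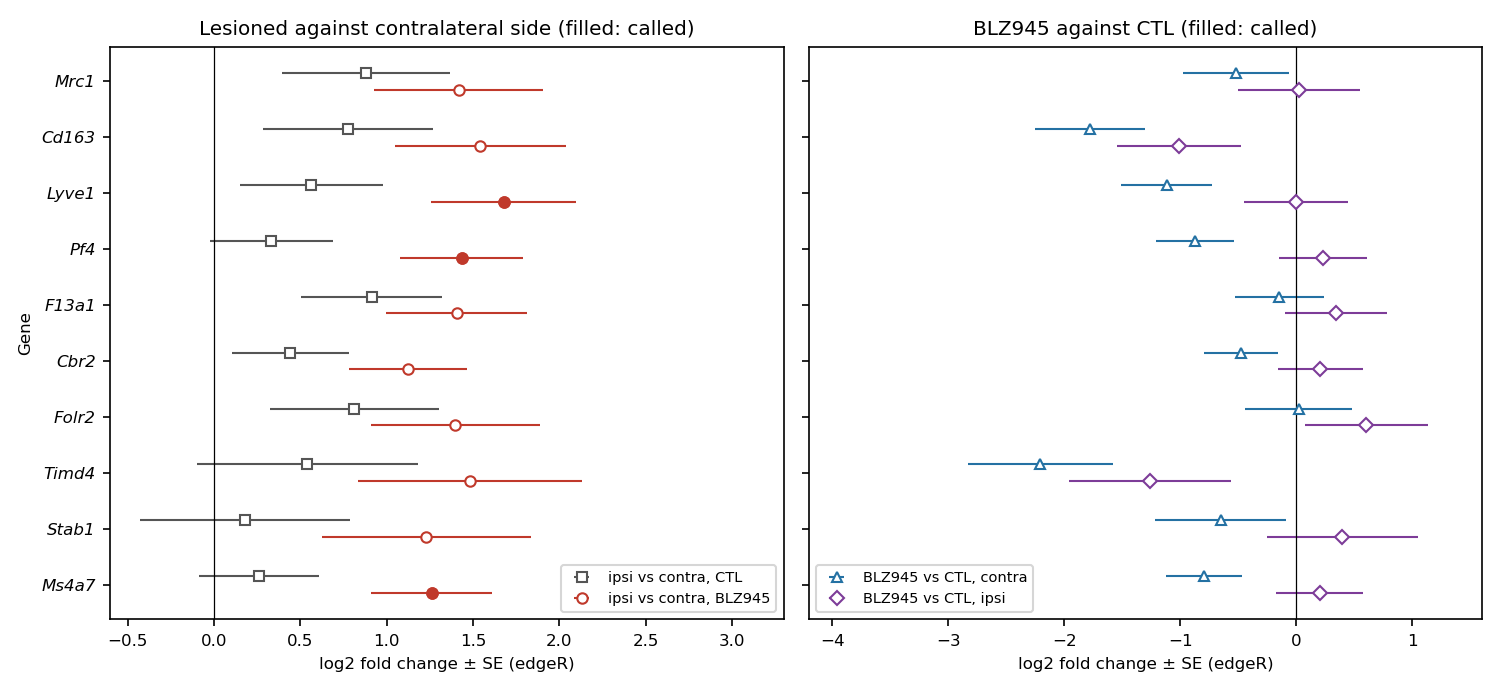
Log2 fold change ± SE of each gene in sdCAMs from edgeR, ipsilateral against contralateral on the left and BLZ945 against CTL on the right, with filled symbols for genes past both thresholds. Lyve1, Pf4 and Ms4a7 are filled in BLZ945 mice, and on the right Cd163 and Timd4 lie farthest to the left.

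The second comparison asked whether repopulated sdCAMs carried these genes at the level of CTL sdCAMs. On the contralateral side no member was called, and neither was any of the 18297 genes (0%), although 5 members had an unadjusted p-value under 0.05. The 5 were Cd163, Lyve1, Pf4, Timd4 and Ms4a7, all lower in BLZ945 mice. DESeq2 called 1, Cd163 (DESeq2 adjusted p = 0.0456), and over all genes it called 35 higher and 9 lower. F13a1 and Folr2 differed little, by -0.15 ± 0.38 SE and 0.02 ± 0.46 SE on the log2 scale.

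Timd4 had 46.6, 29.1, 36.5 and 101 CPM in the CTL contralateral libraries A2, A3, A4 and B1, against 17.5, 4.75, 7.16 and 16.9 CPM in the BLZ945 libraries C2, C3, C4 and D1. Every BLZ945 library was below every CTL library, for this 1 of 10 members and for 1.79% of genes. The log2 fold change was -2.21 ± 0.63 SE (unadjusted p = 0.00301 and adjusted p = 0.759 in edgeR's quasi-likelihood fit).

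Cd163 had 619, 161, 370 and 705 CPM in the CTL contralateral libraries and 56.6, 138, 124 and 222 CPM in the BLZ945 ones. The library of A3 lay below that of D1, and the other 3 CTL libraries lay above all 4 BLZ945 libraries. The log2 fold change was -1.78 ± 0.47 SE (unadjusted p = 0.00187 and adjusted p = 0.759 in edgeR's fit). Markers of other cells also differed between treatments on this side, with 0 called: the median log2 fold change was 2.61 for choroid plexus, 2.24 for neutrophil, 1.58 for monocyte, 1.35 for fibroblast, -0.71 for microglia, -0.88 for astrocyte, -1.13 for neuronal and -1.18 for oligodendrocyte markers, and the part of these in the members' differences was not tested. Lyve1 differed by -1.12 ± 0.39 SE, Pf4 by -0.87 ± 0.33 SE and Ms4a7 by -0.80 ± 0.33 SE on the same scale.

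On the ipsilateral side the members also gave no call (0% of genes called), and none had an unadjusted p-value under 0.05. Cd163 was at 796 ± 298 CPM in CTL and 395 ± 203 CPM in BLZ945 mice (SD, n = 3), a log2 fold change of -1.01 ± 0.54 SE. Timd4 differed by -1.26 ± 0.70 SE, while the other 8 lay between -0.00349 for Lyve1 and 0.60 for Folr2. DESeq2 called 0 members here. Without the 3 choroid-rich libraries, the contralateral differences were -1.82 ± 0.68 SE for Cd163 and -1.77 ± 0.78 SE for Timd4.

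The composition of the sorted libraries moves every gene of a cell type at once, and each member was therefore also set against Mrc1 in the same library, a scaling chosen after the data had been seen. Per 100 Mrc1 reads, Cd163 had 57.3, 38.9, 57.0 and 42.9 reads in the CTL contralateral libraries A2, A3, A4 and B1, and 14.2, 20.9, 36.1 and 17.9 in the BLZ945 libraries C2, C3, C4 and D1. These groups did not overlap. Of 9562 genes compared this way, 0.0941% were lower and 1.1% were higher in every BLZ945 contralateral library. Mrc1 itself had a log2 fold change of -0.52 ± 0.46 SE on this side, which raises all values set against it and makes a lower value rarer. In a fit scaled to Mrc1, 0 members were called and 0% of genes were, and the median log2 fold change over all genes was 0.47. It was -1.14 ± 0.51 SE for Cd163 (edgeR adjusted p = 0.771) and -1.44 ± 0.68 SE for Timd4.

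Timd4 per 100 Mrc1 reads was 4.31, 7.02, 5.61 and 6.18 in CTL and 4.37, 0.720, 2.08 and 1.36 in BLZ945 contralateral libraries, with the library of C2 just above the lowest CTL value. On the ipsilateral side, where again 0% of genes and no member were called, C4 stood apart from the other BLZ945 mice. It had 51.5 Cd163 reads per 100 Mrc1 reads against 18.7 in C3 and 11.4 in D1, and 4.88 Timd4 reads against 0.641 and 1.06. Folr2 and Stab1 were higher in every BLZ945 than in every CTL ipsilateral library, as were 2.05% of genes. Their levels were 2.14 to 3.36 against 1.59 to 2.00 reads for Folr2 and 38.3 to 45.3 against 24.5 to 36.1 for Stab1.

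Between the hemispheres, in the average of both treatments scaled to Mrc1, none of the other 9 members was called, where 43.6% of genes were called in either direction. Their log2 fold changes ran from -0.50 for Ms4a7 to 0.09 for Cd163 with a median of -0.21, against a median of -1.49 over all genes. In CTL mice Stab1 had 48.6 to 53.2 reads per 100 Mrc1 reads contralaterally and 24.5 to 36.1 ipsilaterally (log2 fold change -0.75 ± 0.50 SE, edgeR adjusted p = 0.296), and Ms4a7 had means of 35.6 and 22.5 (-0.66 ± 0.50 SE, adjusted p = 0.354).

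**Figure D3:**
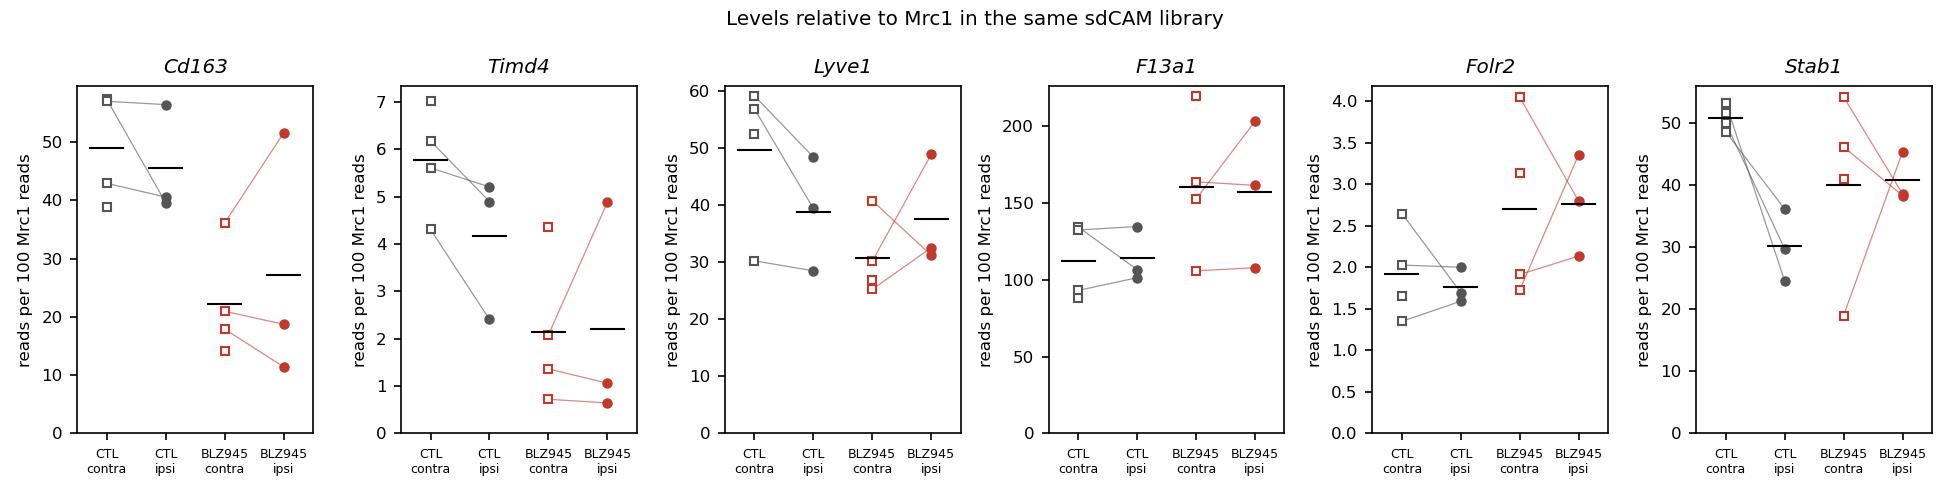
Reads of 6 members per 100 Mrc1 reads in the same sdCAM library, by treatment and hemisphere, with open squares for contralateral and filled circles for ipsilateral libraries, a bar for the mean and a line for each mouse. All BLZ945 libraries but the ipsilateral one of C4 lie below all CTL libraries for Cd163, and the F13a1 means are 160.4 and 157 in BLZ945 against 112 and 114 in CTL mice, contralaterally and ipsilaterally.

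The members varied together across the 14 sdCAM libraries. Pearson's r of log2 CPM had a median of 0.82 over the 45 pairs of members, ranged from 0.31 to 0.95 and was over 0.8 in 27 pairs; these points share mice, libraries and the mix of sorted cells. F13a1 and Folr2 were the closest pair (r = 0.95) and Folr2 and Timd4 the most distant (r = 0.31). Timd4 was nearest to Cd163 (r = 0.81). The 10 genes most like the mean standardised level of the members, among 9553 with a mean of at least 10 CPM, were Rcc2 (r = 0.97), C4b, Adgre1, Igf1, Apoe, Slc9a9, Ap1b1, Flcn, Man1c1 and Clec4a1 (r = 0.95). Adgre1 encodes the macrophage marker F4/80, and Igf1, Apoe and C4b encode a growth factor, a lipid carrier and a complement component.

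Other genes of border macrophages were examined as lists. Over all genes, 3.91% were called higher ipsilaterally in the average, 1.2% in BLZ945 and 0.426% in CTL mice. The lists were not counted without the 3 choroid-rich libraries, where genes called higher in the average went from 715 to 247. Of 30 further border macrophage genes, 29 were tested and 6 were upregulated ipsilaterally in the average of both treatments, namely Cd36, Dab2, Fcna, Ms4a6b, Ms4a6c and Nrp1, with none downregulated (median log2 fold change 0.63). Dab2, an adaptor for endocytosis, changed by 1.35 ± 0.30 SE (edgeR adjusted p = 0.00743) and Fcna, the lectin ficolin A, by 1.27 ± 0.27 SE (adjusted p = 0.00524). In BLZ945 mice 2 of the 29 were upregulated, Dab2 and Fcna, and in CTL mice 0 (medians 0.85 and 0.51). Between treatments none of the 29 was called (median log2 fold change -0.33 contralaterally and 0.19 ipsilaterally).

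Of the 10 macrophage lineage genes, 6 were upregulated ipsilaterally in the average, among them Csf1r, the receptor inhibited by BLZ945 (0.89 ± 0.21 SE, edgeR adjusted p = 0.00927), and Cx3cr1, the fractalkine receptor (0.90 ± 0.17 SE, adjusted p = 0.00246). Most of these genes are shared with microglia. In BLZ945 mice 4 were upregulated and in CTL mice 0, where 1.2% and 0.426% of all genes were, against 3.91% in the average. Of 8 genes that handle the iron and haem brought in through Cd163, none was called in sdCAMs in any comparison between hemispheres or treatments, with a median log2 fold change of 0.37 in the average.

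A list of 9 genes that includes MHC class II genes, Ccr2 and Fxyd5 was taken from the study's account of bone marrow derived sdCAMs in other samples. Its median log2 fold change between BLZ945 and CTL mice was 0.96 contralaterally and 0.61 ipsilaterally, with 0 called. The study gives Cd163, Lyve1 and Folr2 for embryo-derived sdCAMs. These differed by -1.78, -1.12 and 0.02 contralaterally and by -1.01, -0.00349 and 0.60 ipsilaterally. Timd4 differed by -2.21 and -1.26. The summed level of the list was 8007 to 13346 CPM in BLZ945 contralateral libraries and 4203 to 6947 CPM in CTL ones, and the ranges did not overlap. Of single genes, 1.45% were higher in every BLZ945 than in every CTL contralateral library. The difference in the sums was not tested. Ipsilaterally, Cd74, the invariant chain, and H2-Ab1 were upregulated in the average (0.65 ± 0.19 SE and 0.60 ± 0.15 SE, edgeR adjusted p = 0.0287 and 0.0169), as were 3.91% of all genes.

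Markers of other cells moved with the hemisphere in the opposite direction to the members. All 7 endothelial markers were lower ipsilaterally in CTL, in BLZ945 and in the average (median log2 fold change -4.26 in the average). Their summed level fell from between 814 and 2805 CPM in the 8 contralateral sdCAM libraries to between 40.8 and 192 CPM in the 6 ipsilateral ones. Of these 7, Ly6c1 belongs to the Ly6C antigens that the sort excluded. In the average, all 6 oligodendrocyte, 5 of 6 astrocyte, 4 of 5 mural and 3 of 5 choroid plexus markers were also downregulated, where 11.1% of all genes were. The microglia markers had a median log2 fold change of 0.49, and their summed level was 15057 to 30438 CPM ipsilaterally in CTL and 11158 to 23858 in BLZ945 mice. The part of these markers in the members' differences was not tested.

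In the remaining lists few genes were called in the average, where 3.91% of all genes were called higher and 11.1% lower. Of 8 monocyte, 8 neutrophil and 7 fibroblast markers none was called, 2 of 6 dendritic cell markers (Flt3 and Itgax) were upregulated, and 1 of 7 platelet markers (Itga2b), 2 of 3 red blood cell markers (Hba-a1 and Hbb-bt) and 1 of 6 neuronal markers (Syt1) were downregulated.

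**Figure D4:**
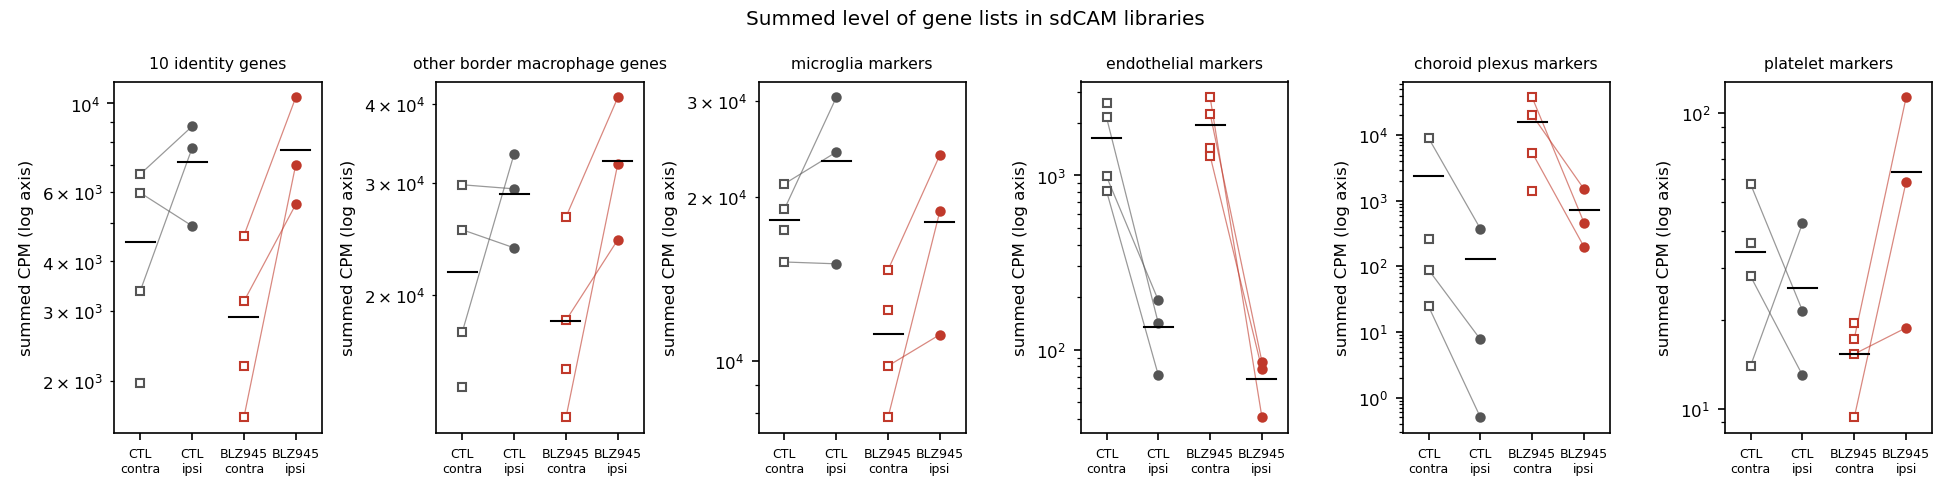
Summed CPM (log axis) of 6 gene lists in sdCAM libraries by treatment and hemisphere, with open squares for contralateral and filled circles for ipsilateral libraries, a bar for the mean and a line for each mouse. The endothelial sums of all 6 ipsilateral libraries lie below all contralateral ones, and choroid plexus sums reach 37595 CPM on the contralateral side of C4.

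In whole tissue the members took only 0.00203% to 0.00441% of the counts. Stab1 was the most abundant, at 12.9 to 26.97 CPM, and Mrc1, Cd163 and F13a1 had between 0.936 and 7.27 CPM. Pf4 had 1 to 14 counts per library, Cbr2 3 to 14, Ms4a7 0 to 10 and Lyve1 3 to 34. Folr2 and Timd4 had 0 counts in 11 of 16 libraries each and at most 3 in any, and Timd4 was not tested, which left 9 members.

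Stab1 was the only member called in tissue, and only in BLZ945 mice, where 1.12% of 18968 genes were called higher. Its contralateral levels were 15.4, 14.5, 12.9 and 15.9 CPM in C2, C3, C4 and D1, and its ipsilateral levels 21.6, 26.97, 16.9 and 26.8 CPM. Every ipsilateral library was higher (log2 fold change 0.65 ± 0.14 SE, edgeR adjusted p = 0.0279). In the same comparison 2 of 7 endothelial markers (Cdh5 and Pecam1), 2 of 10 lineage genes (Ptprc and Spi1), 3 of 28 other border macrophage genes (C4b, Clec4n and Tgfbi) and 2 of 8 genes that handle iron and haem (Hmox1 and Slc11a1) were upregulated. So were Col3a1 of 7 fibroblast, Fn1 of 8 monocyte, Itgax of 5 dendritic cell and Gfap of 6 astrocyte markers, and Fxyd5 of the 9 genes from bone marrow derived sdCAMs, while P2ry12 and Siglech of 9 microglia markers were downregulated. No platelet, red blood cell, neutrophil, mural, neuronal, oligodendrocyte or choroid plexus marker was called by edgeR, and the part of these cells in the Stab1 difference was not tested. Pf4 was separated as well, as were 4.2% of genes, with 0.945, 1.203, 0.631 and 0.999 CPM ipsilaterally against 0.107, 0.105, 0.372 and 0.468 (1.77 ± 0.58 SE, adjusted p = 0.19), on 1 to 12 counts per library.

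In CTL mice no member was called, where 0.443% of genes were called higher, and none was separated, as 2.45% of genes were. Stab1 had 18.3, 20.1, 17.1 and 14.7 CPM contralaterally and 23.3, 18.6, 20.96 and 20.8 CPM ipsilaterally in A2, A3, A4 and B1 (0.25 ± 0.14 SE, edgeR adjusted p = 0.902). In the average of both treatments 0 of 9 members and 1.93% of genes were called higher, with Stab1 at 0.45 ± 0.10 SE (adjusted p = 0.0176) below the fold change threshold and Pf4 at 1.50 ± 0.41 SE (adjusted p = 0.0597).

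The mouse block changed the calls in tissue. With it, F13a1, which had 3.54, 0.941, 1.58 and 0.936 CPM contralaterally and 7.27, 1.40, 3.99 and 4.50 CPM ipsilaterally in C2, C3, C4 and D1, was called beside Stab1 in BLZ945 mice (1.32 ± 0.29 SE, edgeR adjusted p = 0.0112) and alone in the average (0.81 ± 0.20 SE, adjusted p = 0.0145). Calls rose over all genes as well, from 213 to 378 higher in BLZ945 mice and from 367 to 434 in the average. When the 2 tissue libraries of A3 were swapped to follow the table's column names, 0 members were called in BLZ945 mice. Over all genes, those called higher then went from 213 to 6 in BLZ945 mice and from 367 to 1 in the average. Stab1 was also lost without C2, C3 or D1, where 78, 163 and 106 genes were called higher. In the average, DESeq2 called Pf4, where it called 427 genes higher. The interaction and the differences between BLZ945 and CTL mice on either side called 0 members and 0% of genes in tissue with edgeR, with an unadjusted p-value under 0.05 for 1 member, Folr2, which rested on at most 3 counts per library; DESeq2 called 0 members there.

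**Figure D5:**
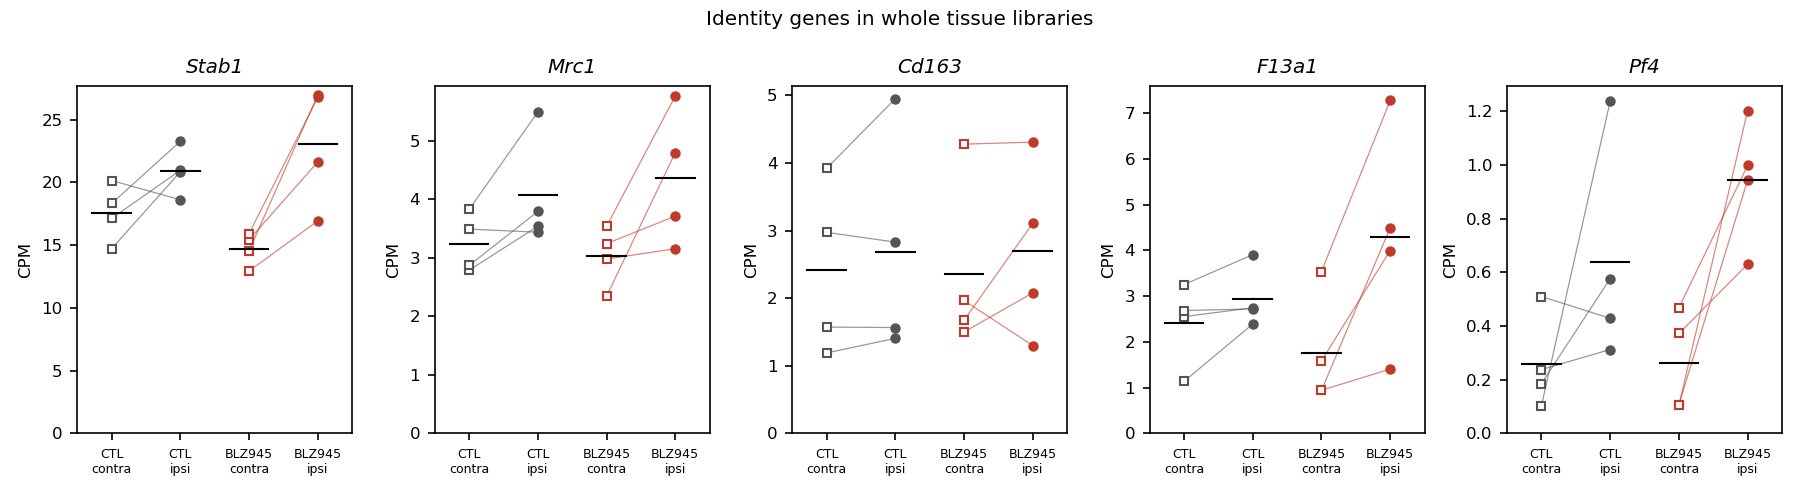
CPM of 5 members in whole tissue by treatment and hemisphere, with open squares for contralateral and filled circles for ipsilateral libraries, a bar for the mean and a line for each mouse. The 4 BLZ945 ipsilateral libraries have 16.9 to 26.97 CPM of Stab1, all above the 12.9 to 15.9 CPM of the contralateral ones.

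Set against tissue in 1 joint fit, all 10 members were higher in sdCAMs on both sides, where 30.3% (contralateral) and 25.3% (ipsilateral) of 19389 genes were. On the contralateral side Stab1 had the smallest log2 fold change (4.44 ± 0.36 SE, edgeR adjusted p = 3.03e-11) and Pf4 the largest (10.14 ± 0.37 SE, adjusted p = 2.02e-18), among the 8 members other than Folr2 and Timd4. On the ipsilateral side these 8 ran from 4.63 for Stab1 to 9.89 for Ms4a7. Pf4 had 1 to 6 counts per contralateral tissue library and Ms4a7 1 to 6 per ipsilateral one. Their place as the largest therefore rests on few tissue reads. For comparison, the 9 microglia markers had medians of 5.70 and 6.51. For Folr2 and Timd4, with 0 to 3 counts per tissue library, no fold change is given.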

How the data were processed

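RNA was sequenced as single-end reads of sorted sdCAMs and of whole tissue. The authors deposited raw read counts per gene, made with bcl2fastq 2.20, STAR 2.7.11a and featureCounts 2.0.8 according to the submitters' processing notes, which also name DESeq2 1.46.0; the study's methods name Gencode M36 with either mm10 or GRCm39 according to when an experiment was done, without saying which applies to these files. The 10 genes and all gene lists were chosen with earlier results of these data known. Sorted cells, tissue and the joint table were each fitted across all genes with edgeR 4.0.16 (R 4.3.3) by its quasi-likelihood test on TMM-normalised counts, after removal of genes with a summed count under 7, 8 and 15, with 1 mean per treatment and hemisphere and Benjamini-Hochberg adjustment. Calls needed an adjusted p under 0.05 and an absolute log2 fold change above 0.59. CPM and the limits of 3 counts are relative to the TMM-normalised library size, and the limits cover counting error only. The analysis was tested on simulated counts.

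Alternatives were DESeq2 1.42.0, its size factors, other filters, no fold change threshold, each mouse left out, the mouse as a replicate block (limma 3.58.1 with a random block between treatments), all 16 sorted libraries and the hemispheres of A3 as named in the table's columns. Hemispheres pair because they came from the same mouse. Deviations from the group means had a median correlation of 0.122 between hemispheres of a mouse in sorted cells (6 pairs) and 0.436 in tissue (8 pairs), against -0.0405 and -0.118 between mice. Variance between replicates was 4.68 to 148 times the sampling noise, so no library was counted as a repeat of another.

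Named were all 10 members, genes of lists with at least 3 calls or whose level moved with a member, and the 10 genes with the highest Pearson r to the members' mean. Genes Tmem119, Cd74, H2-Ab1, Flt3, Itgax, Itga2b, Hba-a1, Hbb-bt, Syt1, Ly6c1, Cdh5, Pecam1, Ptprc, Spi1, Hmox1, Slc11a1, Col3a1, Fn1, Gfap, Fxyd5, P2ry12 and Siglech were named after their values were seen. Exon lengths (GENCODE vM21) and promoters (RefSeq, GRCm38.p6) were matched by symbol. Figures used matplotlib 3.10.9.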

Additional observations from a re-analysis of the deposited data

Results flagged for a closer look

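Of 52 groups of 4 libraries examined for a library far from the rest, 2 stood out, both in tissue and both in BLZ945 mice; chance flags about 1 in 20 groups. Cd163 in contralateral tissue was at 4.28 CPM in C4, against 1.50, 1.67 and 1.97 CPM in the other 3 mice, a gap of 0.832 of the range that is just past Dixon's critical value. Ms4a7 in ipsilateral tissue was at 0.567 CPM in C2, against 0.400, 0.401 and 0.420 CPM, a gap of 0.875 of the range that rests on 6 counts against 4.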

How the results depend on the processing

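The number of members called between hemispheres depended on the fit. In BLZ945 sdCAMs, 3 became 8 with DESeq2 and 6 with no filter. The number was 0 with all 16 libraries, with scaling to Mrc1 or without the 3 choroid-rich contralateral libraries. The last were those above 9000 CPM of choroid markers. Leaving out 1 mouse gave 0 to 6. Over all genes, 220 called higher became 467 with DESeq2, 260 with no filter and 4 with all 16 libraries. They became 0 with scaling to Mrc1, 1 without the choroid-rich libraries and 8 to 241 without 1 mouse. In the average, 8 became 4 with the replicate block and 0 with all 16 libraries, scaled to Mrc1 or without the choroid-rich libraries. Leaving out 1 mouse gave 0 to 8. Over all genes, 715 called higher became 563 with the block, 84 with all 16 libraries and 13 scaled to Mrc1. Without the choroid-rich libraries they were 247, and without 1 mouse 414 to 743. Contralaterally between treatments, 0 became 1 with DESeq2, which called 35 higher and 9 lower over all genes. In tissue, 1 in BLZ945 mice became 2 with the replicate block and 0 with A3 as in the column names, and leaving out 1 mouse gave 0 to 1. Over all genes, 213 called higher became 378 with the block, 6 with A3 as in the column names and 78 to 212 without 1 mouse. In the tissue average, 0 became 1 with no fold change threshold (Stab1), DESeq2 or filterByExpr (Pf4) or the replicate block (F13a1), and 0 to 1 without 1 mouse. Over all genes, 367 called higher became 480 with no threshold, 427 with DESeq2, 341 with filterByExpr and 434 with the block. They were 1 with A3 as in the column names and 239 to 347 without 1 mouse. The block moved no other count of members by over 1.5 times. Scaling to Mrc1 reversed the sign between hemispheres in CTL mice for Cd163 (-0.11), Lyve1 (-0.36), Pf4 (-0.59), Cbr2 (-0.42), Folr2 (-0.12), Stab1 (-0.75) and Ms4a7 (-0.66). It did so in BLZ945 mice for Pf4 (-0.12), F13a1 (-0.027), Cbr2 (-0.27) and Ms4a7 (-0.34), and in the average for Lyve1 (-0.035), Pf4 (-0.36), Cbr2 (-0.34), Folr2 (-0.047), Timd4 (-0.21), Stab1 (-0.37) and Ms4a7 (-0.50). Contralaterally between treatments it reversed F13a1 (0.52) and Cbr2 (0.11). Other reversals were Mrc1 ipsilaterally between treatments without D1 (-0.49 to 0.28 over the mice left out), Mrc1 in CTL tissue with A3 as in the column names (-0.0084) and Lyve1 in contralateral tissue between treatments without C4 (-0.15 to 0.89 over the mice left out). Of the other values, 2026 kept their side of the threshold, 82 lost and 21 gained the call; 68 of the 2026 changed sign between values that were both within 1 SE of 0, which was not counted as a reversal. The cause of these changes was not tested. Scaling to Mrc1 moved the median of all genes between hemispheres to -1.49 on the log2 scale in the average, and its values are relative to Mrc1 alone.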
